A study of Mus musculus with 16 samples.

Results

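The Wnt signalling system was followed here through 51 genes chosen by symbol from the 56748 genes of the deposited table. They comprised 16 Wnt ligands, 14 receptors (10 Frizzled genes, the co-receptors Lrp5 and Lrp6, and the receptor kinases Ror1 and Ror2), 8 secreted antagonists, 6 genes of the R-spondin and Lgr group, and 7 target genes that feed back on the pathway. The genes were listed by role, with earlier results of these data known. Of the 51 genes, 50 reached 0.5 FPKM in at least 4 libraries and were tested. Wnt10a did not: its values lay between 0.0917 and 0.528 FPKM, from 8 to 51 reads per library, so it is given with no test. FPKM corrects the fragments counted in a gene for its length and for the size of the library, and levels of different genes were compared on that scale only.

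RNA was sequenced from mouse embryos at E11.5, in 4 groups of 4 libraries: Ednrb-/- trunk, WT trunk, Ednrb-/- caudal and WT caudal. The Ednrb-/- embryos carried a targeted mutation of the endothelin receptor B gene on both alleles, and the WT embryos were Ednrb+/+. The strain, the design of the mutant allele and the number of embryos per library were not given in the sources used here, and all 4 groups were whole dissected regions rather than sorted cells. The receptor is required by melanoblasts, the precursors of pigment cells, on their way through the skin, and the series asks whether the tissue they travel through differs in embryos that lack it.

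Wnt proteins are secreted lipid-modified ligands that bind Frizzled receptors together with the co-receptors Lrp5 and Lrp6, which lets beta-catenin enter the nucleus and act with the Tcf/Lef factors on target genes. Other ligands, of which Wnt5a and Wnt11 are the best known, act mostly without beta-catenin, through Ror2 and the planar polarity proteins. Dkk proteins block the co-receptors, and the Sfrp proteins, Frzb and Wif1 bind the ligands themselves. R-spondins, bound by Lgr4 and Lgr5, keep the ubiquitin ligases Rnf43 and Znrf3 from removing Frizzled receptors from the cell surface. In the embryo the pathway patterns the neural tube, somites, limb buds and tail, and in neural crest it favours the melanocyte fate.

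Reads in the listed genes ranged from 34883821 to 43444905 per library. Ednrb was low in all 8 mutant libraries, at 1.59 to 4.80 FPKM, against 26.2 to 41.8 FPKM in the 8 WT libraries. All 11 Hox genes listed from paralog groups 10 to 13, which mark the posterior body axis, were lower in trunk than in caudal libraries in both genotypes. Of all genes tested, 18.9% were called lower in trunk in Ednrb-/- and 8.35% in WT. Hoxa13 and Hoxc12 were below 0.1 FPKM in every trunk library. They were tested only because of caudal libraries, so a fall in trunk was largely set in advance for them. Hoxc11 and Hoxc13 were below 0.1 FPKM in every Ednrb-/- trunk library. The female-specific RNA Xist stood at 135 FPKM in Ednrb-/- trunk replicate 2, and at 145 and 148 FPKM in WT trunk replicates 1 and 4. It was 156 FPKM in WT caudal replicate 1 and at most 5.72 FPKM in Ednrb-/- caudal, so it was not balanced across groups. In 3 libraries, Ednrb-/- trunk replicate 3, Ednrb-/- caudal replicate 3 and WT caudal replicate 2, Xist and the Y-linked gene Ddx3y both reached 5 FPKM or more. Without these 3 libraries 24 Wnt genes were called in each genotype comparison, against 25 in each with all libraries. Over all genes the called share fell from 41.6% to 38.1% in the caudal region and from 25.1% to 20.9% in the trunk. The 24 caudal calls were 16 higher and 8 lower, and 22 of them were shared with the main fit. With Xist as a covariate 25 caudal and 23 trunk Wnt genes were called, beside 38.9% and 23.1% of all genes.

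The promoters of 4 genes are printed to show what the sequence just upstream of a responding gene looks like, since targets of beta-catenin are reached through Tcf/Lef sites. The core letters CTTTGAA or CTTTGAT, and likewise CTTTGTA or CTTTGTT, were searched on both strands in the 250 bases before each RefSeq gene start (GRCm38.p6, another build than that of the expression table). Promoters of 35 of the 51 genes were in the RefSeq table, and 5 of them (14.3%: Wnt5b, Wnt11, Fzd7, Dkk1 and Lef1) held a match, against 4527 of 27025 genes in the whole table (16.8%). The share among the Wnt genes was thus no higher than in the table at large. The sequences below run 5′ to 3′ along the gene's own strand, and capitals mark the matches, none of which overlapped another. Dkk1 is a secreted inhibitor and a known target of beta-catenin, on the minus strand at chr19:30549497-30549746, with matches that begin 117 and 98 bases before the start. Fzd7, on the plus strand at chr1:59481897-59482146, and Wnt11, on the plus strand at chr7:98834862-98835111, hold 1 match each, that begins 130 and 51 bases before the start. Wnt11 has 2 windows in the RefSeq table, of which only 1 holds a match, and that window was chosen for printing. Axin2, the most widely used reporter of the pathway, on the plus strand at chr11:108920099-108920348, is shown as a target with no match in this window.
Dkk1: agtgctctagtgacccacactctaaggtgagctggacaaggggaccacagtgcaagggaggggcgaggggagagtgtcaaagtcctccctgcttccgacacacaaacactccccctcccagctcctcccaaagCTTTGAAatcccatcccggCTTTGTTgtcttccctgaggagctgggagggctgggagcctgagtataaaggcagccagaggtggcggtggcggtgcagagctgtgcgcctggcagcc
Fzd7: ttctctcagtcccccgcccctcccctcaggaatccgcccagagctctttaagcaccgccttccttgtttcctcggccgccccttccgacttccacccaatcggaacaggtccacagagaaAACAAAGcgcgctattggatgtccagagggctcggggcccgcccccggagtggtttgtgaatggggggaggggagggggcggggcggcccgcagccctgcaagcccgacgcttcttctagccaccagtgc
Wnt11: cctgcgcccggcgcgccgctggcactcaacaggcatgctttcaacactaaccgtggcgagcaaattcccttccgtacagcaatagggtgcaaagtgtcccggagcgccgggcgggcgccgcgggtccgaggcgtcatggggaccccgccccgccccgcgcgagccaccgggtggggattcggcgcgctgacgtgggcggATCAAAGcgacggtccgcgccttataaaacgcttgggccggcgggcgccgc
Axin2: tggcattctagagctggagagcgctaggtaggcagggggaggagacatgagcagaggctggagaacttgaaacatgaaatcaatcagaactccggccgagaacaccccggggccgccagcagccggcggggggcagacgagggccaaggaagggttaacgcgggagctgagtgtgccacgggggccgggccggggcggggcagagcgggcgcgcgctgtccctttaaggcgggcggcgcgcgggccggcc

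Wnt genes of every role changed in both regions of Ednrb-/- embryos, in both directions for every role except the targets, of which on the TPM scale 1 rose and 1 fell in the caudal region. Changes are differences of log2(FPKM + 0.5) between group means with the standard error of the limma fit, and a gene was called at a Benjamini-Hochberg adjusted p under 0.05 over the 17205 genes tested. In the caudal region 25 of 50 Wnt genes were called, 14 higher and 11 lower in Ednrb-/- embryos, beside 41.6% of all genes tested (21.7% higher and 19.9% lower). In the trunk 25 of 50 were called, 16 higher and 9 lower, beside 25.1% of all genes (12.2% higher and 13.0% lower). Of the 16, Rspo4 passed the filter on low values only through Ednrb-/- trunk, and without it 15 of 49 were higher and 9 lower. The median change of the 50 genes was 0.05 in the caudal region and 0.09 in the trunk, beside 0.01 and 0.00 for all genes. The 4 libraries of each genotype did not overlap in FPKM for 21 genes in the caudal region (37.3% of all genes tested) and for 28 in the trunk (28.1%). The 28 include Rspo4, for which a higher level in Ednrb-/- trunk was largely set by the filter. Rescaling to TPM, which shares each library out over all its transcripts, left 25 caudal calls but split them into 10 higher and 15 lower. Over all genes 30.7% of the caudal calls were higher in TPM, beside 52.1% in FPKM.

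A group of 8 Wnt genes rose in both regions of Ednrb-/- embryos, and 5 fell in both, with Rspo4 left out of this count. Those that rose were Wnt2, Wnt16, Fzd4, Fzd7, Ror2, Axin2, Tcf7 and Znrf3, and those that fell were Wnt11, Fzd9, Dkk2, Dkk3 and Lgr5. In the trunk, the calls of Wnt2 and Dkk3 were lost in some of the alternative fits run. Caudally, those of Ror2, Axin2, Znrf3 and Fzd9 were lost in some. Wnt5a and Rspo3 were called in both regions with opposite signs. A further 9 genes were called in the trunk and not in the caudal region, 9 in the caudal region and not in the trunk, and 16 in neither. How many of all genes tested showed each of these patterns was not counted. Of all genes, 41.6% were called in the caudal region and 25.1% in the trunk. The interaction, which is the genotype effect in the caudal region minus that in the trunk, was called for 6 of 50 genes (2 higher and 4 lower), beside 6.76% of all genes tested (2.98% higher and 3.78% lower). These were Wnt4, Wnt5a, Fzd3, Sfrp5, Rspo3 and Lgr4. Rescaled to TPM, 7 were called, and the share of higher calls over all genes was 20.9%, beside 44.1% in FPKM and 29.4% in a fit of the whole reads with voom, which weights each value by its count. For the other genes called in 1 region only, a difference between the regions was not shown.

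**Figure D1:**
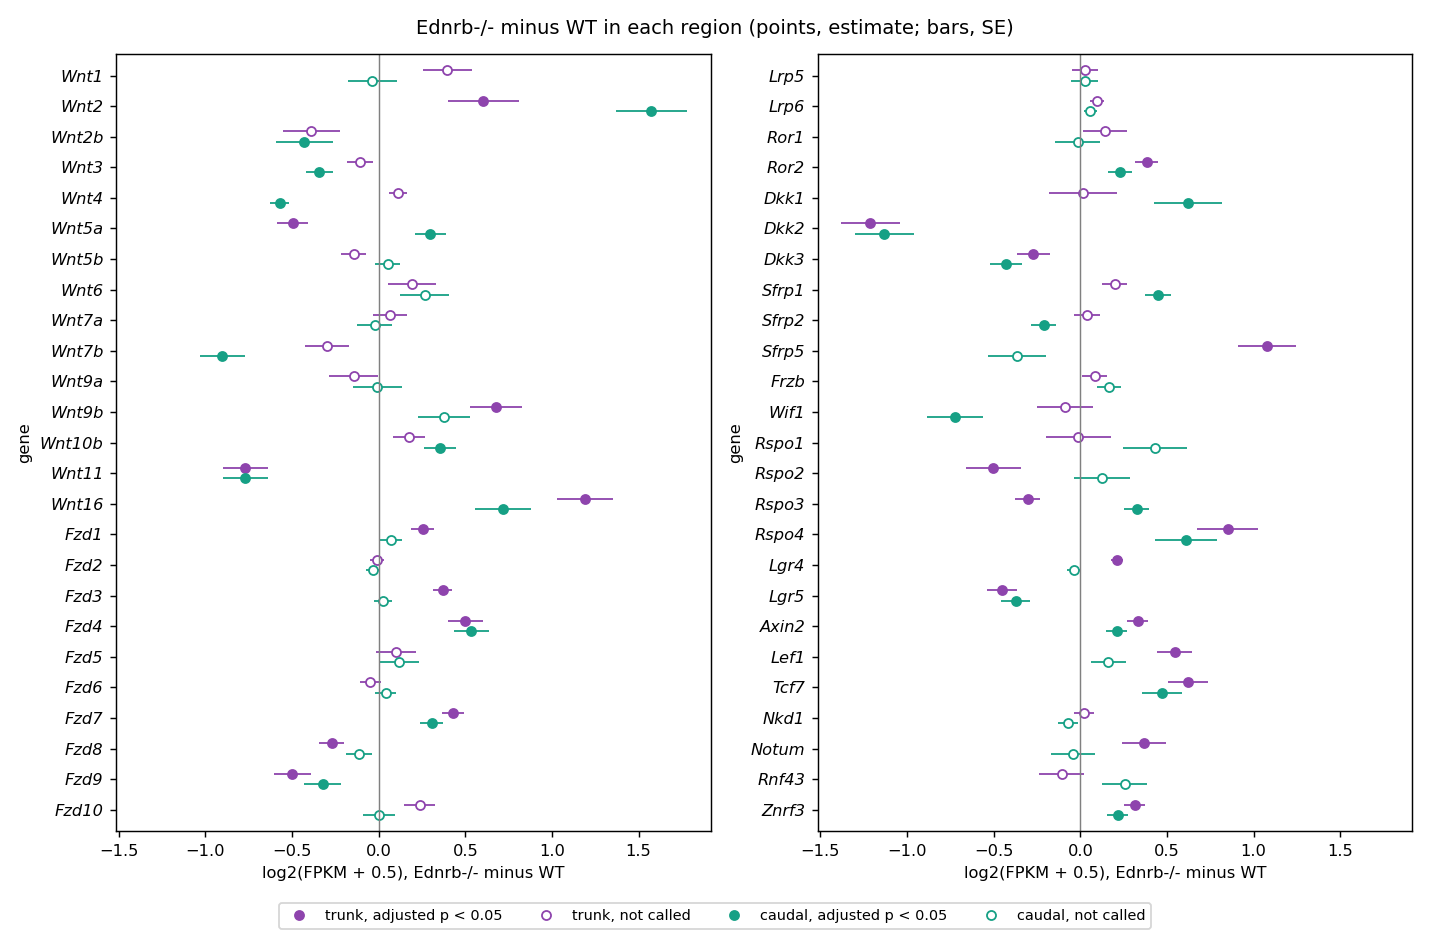
Difference in log2(FPKM + 0.5) between Ednrb-/- and WT embryos for the 50 Wnt genes tested, with trunk above caudal for each gene; points are limma estimates, bars are standard errors and filled points were called at an adjusted p under 0.05. Dkk2 and Wnt11 lie left of 0 in both regions, Wnt16 and Wnt2 right of 0 in both, and Wnt5a and Rspo3 on opposite sides. Rspo4 in the trunk passed the filter only through Ednrb-/- trunk.

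Among the ligands, 4 of 15 tested rose and 5 fell in the caudal region of Ednrb-/- embryos, and 3 rose and 2 fell in the trunk, with medians of -0.01 and 0.06. These were 60% of the ligands caudally, beside 41.6% of all genes tested, and 33.3% in the trunk, beside 25.1%. Summed over ligands, Ednrb-/- trunk had 53.0 ± 2.04 FPKM, against 55.7 ± 3.73 FPKM in WT trunk, and 56.8 ± 2.87 FPKM in Ednrb-/- caudal and 57.8 ± 3.64 FPKM in WT caudal (SD, n = 4 each). The sum covers all 16 ligands. Wnt4, Wnt7b and Wnt5a led the list in Ednrb-/- trunk (15.2%, 15.0% and 14.1% of the sum). In WT trunk, Wnt5a held 19.2%, Wnt7b 17.8% and Wnt4 13.3%. Wnt5a, Wnt6 and Wnt16 led in Ednrb-/- caudal (20.54%, 10.2% and 10.1%). In WT caudal, Wnt7b held 18.0%, Wnt5a 16.3% and Wnt4 13.0%, and Wnt16 5.83%.

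Wnt16, a ligand known for its part in bone and in the specification of blood stem cells in zebrafish, rose in both regions. Its FPKM were 2.49, 3.14, 2.37 and 3.75 in Ednrb-/- trunk, against 1.22, 0.848, 0.972 and 0.942 in WT trunk. They were 5.57, 5.76, 5.69 and 5.86 in Ednrb-/- caudal, against 3.71, 3.66, 4.15 and 2.03 in WT caudal. The genotypes did not overlap in either region, and Ednrb-/- trunk reached levels seen in WT caudal libraries. The change was 1.19 ± 0.16 in the trunk (adjusted p = 0.000146) and 0.72 ± 0.16 in the caudal region (adjusted p = 0.00231). The difference between these effects was -0.47 ± 0.23 (adjusted p = 0.224). Without WT caudal replicate 4, the library with the lowest caudal value, it was -0.67 ± 0.16 (adjusted p = 0.0310).

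Wnt2, a ligand that directs the budding of the lung and acts in the heart and placenta, rose in both regions of Ednrb-/- embryos. Its FPKM were 4.41, 3.46, 5.08 and 4.44 in Ednrb-/- caudal, against 1.24, 1.21, 0.667 and 1.47 in WT caudal. In the trunk they were 1.87, 2.46, 1.72 and 3.23 in Ednrb-/- libraries, against 2.07, 1.38, 1.06 and 0.951 in WT libraries. The caudal groups were far apart, and the trunk groups overlapped. The caudal change of 1.57 ± 0.20 (adjusted p = 3.39e-05) exceeded those of all other Wnt genes in that region. The trunk change of 0.60 ± 0.20 had an adjusted p of 0.0410. That trunk call was lost without Ednrb-/- trunk replicate 2 or 4, WT trunk replicate 2, 3 or 4, or Ednrb-/- caudal replicate 1 or 4 (adjusted p between 0.0502 and 0.131). The difference between the regions was 0.97 ± 0.29 (adjusted p = 0.0554), and it was called when Ednrb-/- trunk replicate 4 was left out (adjusted p = 0.0308) or when WT trunk replicate 4 was (adjusted p = 0.0495).

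Wnt11, a ligand that guides cell movements largely without beta-catenin, fell in both regions. Its FPKM were 1.78, 1.75, 2.43 and 1.84 in Ednrb-/- trunk, against 3.68, 3.95, 3.27 and 3.74 in WT trunk. They were 1.89, 1.11, 1.75 and 1.39 in Ednrb-/- caudal, against 2.68, 3.51, 2.41 and 3.23 in WT caudal. Every mutant library lay below every WT library of its region. The change was -0.77 ± 0.13 in the trunk (adjusted p = 0.000708) and -0.77 ± 0.13 in the caudal region (adjusted p = 0.000279), and their difference was 0.00 ± 0.18 (adjusted p = 1.000).

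Wnt4 and Wnt7b fell in the caudal region of Ednrb-/- embryos. Wnt4, needed for kidney tubules and the female reproductive tract, had 4.80, 4.79, 4.92 and 4.94 FPKM in Ednrb-/- caudal, against 7.28, 7.42, 8.36 and 6.89 FPKM in WT caudal. In the trunk it had 7.97, 7.91, 8.28 and 7.94 FPKM in Ednrb-/- libraries, against 7.30, 7.85, 6.83 and 7.63 FPKM in WT libraries. The mutant caudal libraries stood below all 12 others, within a narrow range, and the trunk genotypes did not overlap either, with the mutant higher. The Wnt4 change was -0.57 ± 0.05 in the caudal region (adjusted p = 3.46e-06) and 0.11 ± 0.05 in the trunk (adjusted p = 0.141). The difference between these effects was -0.68 ± 0.07 (adjusted p = 0.000419). Wnt7b, a ligand of epithelia and of spinal cord, had 6.45, 3.83, 6.44 and 4.96 FPKM in Ednrb-/- caudal, against 10.5, 9.76, 12.0 and 9.30 FPKM in WT caudal. Its caudal groups were far apart, with a change of -0.90 ± 0.13 (adjusted p = 7.47e-05). In the trunk it had 8.63, 8.04, 6.79 and 8.25 FPKM in Ednrb-/- libraries, against 8.80, 9.85, 10.5 and 10.3 FPKM in WT libraries, without overlap, and a change of -0.30 ± 0.13 that was not called (adjusted p = 0.105). Its trunk change was called without Ednrb-/- caudal replicate 2 (adjusted p = 0.0345). The difference between its effects was -0.60 ± 0.18 (adjusted p = 0.0593), which was called without Ednrb-/- caudal replicate 1 (adjusted p = 0.0368) or replicate 3 (adjusted p = 0.0306), and without the 3 libraries with both Xist and Ddx3y (-0.78, adjusted p = 0.0349).

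Wnt5a, which acts largely without beta-catenin in limb and tail outgrowth and in pigment cells, moved in opposite directions in the regions. In the trunk its FPKM were 7.93, 6.89, 7.90 and 7.06 in Ednrb-/- libraries, against 10.7, 12.4, 9.23 and 10.7 in WT libraries. In the caudal region they were 11.8, 11.3, 11.52 and 11.9 in Ednrb-/- libraries, against 8.89, 11.47, 8.97 and 8.49 in WT libraries. The trunk genotypes did not overlap, and in the caudal region WT replicate 2 reached the mutant range. The change was -0.50 ± 0.09 in the trunk (adjusted p = 0.000996) and 0.30 ± 0.09 in the caudal region (adjusted p = 0.0137). The difference between these effects was 0.79 ± 0.13 (adjusted p = 0.00372). On the TPM scale the caudal change was no longer called (0.20, adjusted p = 0.0897). Summed markers of limb bud mesenchyme, where Wnt5a is strongly made, were 11.53 to 14.7 FPKM in Ednrb-/- trunk, 9.01 to 18.5 in WT trunk, 21.5 to 31.0 in Ednrb-/- caudal and 5.90 to 20.9 in WT caudal. Of these 7 markers, 4 rose and 2 fell in the caudal region (85.7%, beside 41.6% of all genes), 0 were called in the trunk, and 0 were below 0.1 FPKM in every library of a group. Their part in the Wnt5a result was not tested, and in bulk RNA fewer cells of a type and less RNA per cell cannot be told apart.

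**Figure D2:**
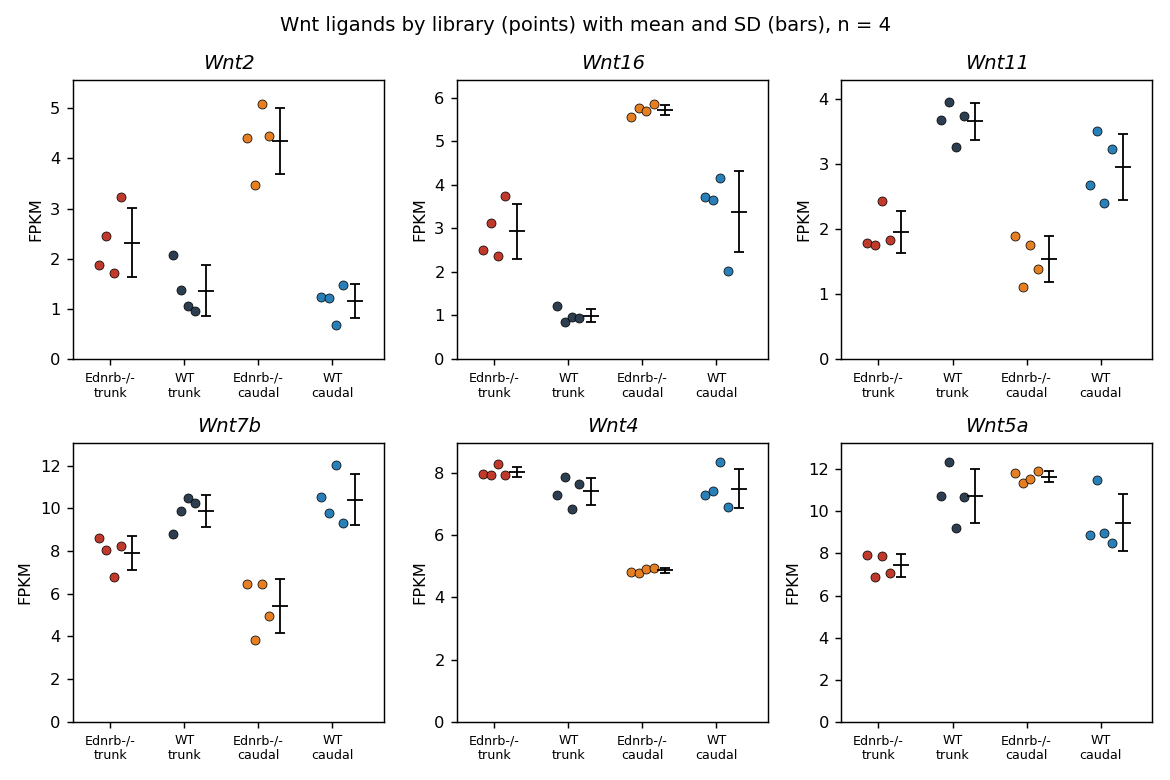
FPKM of 6 Wnt ligands in each of the 16 libraries (points), by group, with the mean and SD of 4 libraries (bars). The 4 Ednrb-/- caudal libraries of Wnt4 sit between 4.79 and 4.94 FPKM, below all others, and the Wnt16 values of each mutant group sit above those of WT in the same region.

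Wnt9b, Wnt3, Wnt10b and Wnt2b were each called in 1 region. Wnt9b, a ligand of the urogenital tract, had 1.32, 1.21, 1.17 and 1.72 FPKM in Ednrb-/- trunk, against 0.921, 0.718, 0.493 and 0.529 FPKM in WT trunk. These groups did not overlap, and the change was 0.68 ± 0.15 (adjusted p = 0.00444). Its caudal change of 0.38 ± 0.15 was not called (adjusted p = 0.0573), but was called without WT trunk replicate 1 (adjusted p = 0.0451) or WT caudal replicate 1 (adjusted p = 0.0494) or 2 (adjusted p = 0.0262). Wnt3, which is required for gastrulation and limb outgrowth, averaged 2.46 ± 0.295 FPKM in Ednrb-/- caudal and 3.25 ± 0.339 FPKM in WT caudal, and fell (-0.34 ± 0.08, adjusted p = 0.00229). Wnt10b, a canonical ligand, averaged 1.32 ± 0.124 FPKM in Ednrb-/- caudal and 0.925 ± 0.179 FPKM in WT caudal, and rose (0.36 ± 0.09, adjusted p = 0.00566).

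Wnt2b, a ligand of roof plate and early organ mesenchyme, averaged 0.757 ± 0.136 FPKM in Ednrb-/- caudal and 1.24 ± 0.528 FPKM in WT caudal, with the groups overlapping (-0.43 ± 0.16, adjusted p = 0.0469). That call for Wnt2b was lost without any 1 of 12 libraries (each Ednrb-/- trunk replicate, WT trunk replicates 2 and 4, Ednrb-/- caudal replicates 1, 2 and 4, and WT caudal replicates 1, 2 and 4), with adjusted p between 0.0522 and 0.159. Without WT caudal replicate 4, the highest library, the change of Wnt2b was -0.24. The call was also lost without the 3 libraries with both Xist and Ddx3y (-0.50, adjusted p = 0.0760). In the trunk, Wnt2b had a change of -0.39 ± 0.16 that was not called (adjusted p = 0.0978), but was called without WT caudal replicate 4 (adjusted p = 0.0268).

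Wnt1, Wnt5b, Wnt6, Wnt7a and Wnt9a were called in neither region. Wnt1, made by the roof plate and needed by neural crest, averaged 1.97 ± 0.269 FPKM in Ednrb-/- trunk and 1.40 ± 0.363 FPKM in WT trunk (0.40 ± 0.14, adjusted p = 0.0528). Its trunk change was called without WT trunk replicate 2 (adjusted p = 0.0461) or 4 (adjusted p = 0.0453), or WT caudal replicate 3 (adjusted p = 0.0435) or 4 (adjusted p = 0.0469). Of 8 markers of the dorsal neural tube, where Wnt1 is made, 7 were tested, and 3 rose and 1 fell in the trunk (57.1%, beside 25.1% of all genes); their summed level was 75.8 to 83.2 FPKM in Ednrb-/- trunk and 61.2 to 79.8 FPKM in WT trunk. In the caudal region 1 of these markers rose and 2 fell (42.9%, near the 41.6% of all genes), with sums of 63.2 to 75.8 FPKM in Ednrb-/- libraries and 71.2 to 95.2 FPKM in WT libraries. Wnt6, an ectodermal ligand, averaged 5.79 ± 0.907 FPKM in Ednrb-/- caudal and 4.74 ± 0.849 FPKM in WT caudal (0.26 ± 0.14, adjusted p = 0.147), and was called without Ednrb-/- caudal replicate 3 (0.37, adjusted p = 0.0400) or without the 3 libraries with both Xist and Ddx3y (0.47, adjusted p = 0.0151). Wnt7a, a ligand of dorsal limb ectoderm, averaged 3.52 ± 0.493 FPKM in Ednrb-/- trunk, 3.33 ± 0.301 in WT trunk, 3.63 ± 0.140 in Ednrb-/- caudal and 3.73 ± 0.567 in WT caudal. Wnt9a, which acts in joints, averaged 1.38 ± 0.198 FPKM in Ednrb-/- trunk, 1.59 ± 0.353 in WT trunk, 1.22 ± 0.333 in Ednrb-/- caudal and 1.21 ± 0.114 in WT caudal. Neither was called in any comparison. Wnt5b averaged 3.36 ± 0.349 FPKM in Ednrb-/- trunk, 3.77 ± 0.334 in WT trunk, 4.35 ± 0.312 in Ednrb-/- caudal and 4.18 ± 0.0656 in WT caudal. It overlaps Fbxl14 on the opposite strand, which had more reads per length (17.7 FPKM on average, against 3.91 FPKM for Wnt5b), and whether the counting used strand was not given in the sources used here.

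Markers of other tissues that make Wnt ligands were read against the share of all genes called, 25.1% in the trunk and 41.6% in the caudal region. Of 7 surface ectoderm markers, 4 fell in the trunk (57.1%), with sums of 24.1 to 26.5 FPKM in Ednrb-/- and 39.4 to 47.6 FPKM in WT. In the caudal region 3 fell and 1 rose (57.1%), with sums of 32.8 to 38.8 FPKM in Ednrb-/- and 38.6 to 52.3 FPKM in WT. Krt5, Krt14 and Krt15, keratins of the basal layer, were the 3 that fell caudally, and they fell in the trunk as well. Of the 7 markers, 3 were not called in the trunk and 3 were not called caudally. The median change of the 7 was -0.33 in the trunk and -0.02 in the caudal region. Of 7 gut and lung endoderm markers, 5 were tested and 4 rose in the caudal region (80%), where the sums were 22.8 to 29.3 FPKM in Ednrb-/- and 14.5 to 16.3 FPKM in WT. In the trunk 1 of them rose and 1 fell (40%), with sums of 10.3 to 11.6 FPKM in Ednrb-/- and 8.78 to 9.77 FPKM in WT. Nkx2-1, which defines lung endoderm, was below 0.1 FPKM in all 16 libraries, as was the heart factor Nkx2-5. Of 7 urogenital markers, 2 rose and 3 fell in the caudal region (71.4%), with sums of 34.4 to 38.1 FPKM in Ednrb-/- and 23.7 to 48.4 FPKM in WT. In the trunk 2 of the urogenital markers fell (28.6%), with sums of 39.8 to 46.2 FPKM in Ednrb-/- and 47.2 to 51.1 FPKM in WT. Of 6 markers of mesothelium and heart, 4 were tested. Caudally, 2 rose and 1 fell (75%), with sums of 9.09 to 11.4 FPKM in Ednrb-/- and 9.31 to 10.7 FPKM in WT. In the trunk 1 rose (25%), with sums of 12.1 to 14.1 FPKM in Ednrb-/- and 9.14 to 13.4 FPKM in WT. The part of these tissues in the changes of Wnt2, Wnt4, Wnt7b and Wnt9b was not tested.

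Fzd4, Fzd7 and Ror2 rose in both regions of Ednrb-/- embryos, and Fzd9 fell. In the trunk 5 of 14 rose and 2 fell in Ednrb-/- embryos, and in the caudal region 3 rose and 1 fell, with medians of 0.12 and 0.03. The called share of receptors was 50% in the trunk, beside 25.1% of all genes, and 28.6% in the caudal region, beside 41.6% of all genes. Fzd2 was the most abundant receptor in every group, at 43.4 ± 1.20 FPKM in Ednrb-/- trunk, 43.7 ± 1.41 in WT trunk, 46.6 ± 0.654 in Ednrb-/- caudal and 47.9 ± 2.99 in WT caudal, and it was called in neither region. Its caudal change was called as lower on the TPM scale (-0.14, adjusted p = 0.0172). Summed receptor FPKM were 191.5 ± 5.04 in Ednrb-/- trunk and 169.1 ± 3.696 in WT trunk, and 207.5 ± 5.13 in Ednrb-/- caudal and 196.1 ± 5.43 in WT caudal (SD, n = 4 each). These sums, like those of the other roles, were not rescaled to TPM. On that scale the median caudal change over all genes was -0.08, beside 0.01 in FPKM. Lrp5, Lrp6, Ror1, Fzd5, Fzd6 and Fzd10 were called in neither region. The co-receptor Lrp6 averaged 13.9 ± 0.375 FPKM in Ednrb-/- trunk, 13.0 ± 0.527 in WT trunk, 14.0 ± 0.288 in Ednrb-/- caudal and 13.4 ± 0.597 in WT caudal. Lrp5 averaged 6.81 ± 0.441, 6.69 ± 0.688, 6.74 ± 0.600 and 6.61 ± 0.490 FPKM, Ror1 8.81 ± 0.573, 7.98 ± 1.22, 8.19 ± 0.550 and 8.42 ± 1.81 FPKM, Fzd6 5.20 ± 0.515, 5.38 ± 0.144, 5.38 ± 0.251 and 5.22 ± 0.223 FPKM and Fzd10 20.3 ± 1.59, 17.2 ± 1.96, 25.3 ± 1.11 and 25.4 ± 3.42 FPKM, in the same order of groups. Lrp6 was called in the trunk without WT trunk replicate 2 (0.12, adjusted p = 0.0488). Fzd10 was called there when Ednrb-/- trunk replicate 3 was left out (adjusted p = 0.0447), and likewise WT trunk replicate 4 (adjusted p = 0.0464) or WT caudal replicate 3 (adjusted p = 0.0405). Fzd5 stayed between 0.383 and 0.781 FPKM, close to the level needed to be tested.

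Fzd7, a receptor of canonical signalling in mesoderm and stem cells, averaged 24.6 ± 2.48 FPKM in Ednrb-/- trunk and 18.1 ± 0.602 FPKM in WT trunk, and 34.6 ± 2.56 in Ednrb-/- caudal and 27.9 ± 1.67 in WT caudal. The genotypes did not overlap in either region, with changes of 0.43 ± 0.07 in the trunk (adjusted p = 0.000316) and 0.31 ± 0.07 in the caudal region (adjusted p = 0.00158). Fzd4, which serves as the Norrin receptor in vessels, averaged 8.71 ± 0.461 FPKM in Ednrb-/- trunk and 6.04 ± 0.848 FPKM in WT trunk, and 8.45 ± 1.04 in Ednrb-/- caudal and 5.69 ± 0.754 in WT caudal. It rose by 0.50 in the trunk (adjusted p = 0.00261) and 0.53 in the caudal region (adjusted p = 0.000717). Ror2, the kinase that receives Wnt5a, averaged 9.77 ± 0.947 FPKM in Ednrb-/- trunk and 7.36 ± 0.169 FPKM in WT trunk, and 13.8 ± 1.25 in Ednrb-/- caudal and 11.7 ± 0.585 in WT caudal. Ror2 rose in the trunk (0.38 ± 0.07, adjusted p = 0.000939), the region in which Wnt5a fell. Caudally, Ror2 rose by 0.23 (adjusted p = 0.0127), a call that was lost on the TPM scale (0.13, adjusted p = 0.117).

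Fzd3, needed for axon growth and planar polarity, changed in the trunk. It had 21.7 to 23.3 FPKM in Ednrb-/- trunk, against 15.9 to 18.2 FPKM in WT trunk, and 17.5 to 19.5 FPKM in Ednrb-/- caudal, against 16.7 to 19.3 FPKM in WT caudal. The trunk change was 0.37 ± 0.05 (adjusted p = 0.000196), the caudal one 0.03 ± 0.05 (adjusted p = 0.732), and their difference -0.34 ± 0.07 was called (adjusted p = 0.0158). Fzd1 rose in the trunk, with 20.1 ± 0.284 FPKM in Ednrb-/- and 16.8 ± 0.452 FPKM in WT (0.25 ± 0.07, adjusted p = 0.0121). The difference of the Fzd1 effects between the regions was -0.18 ± 0.09 (adjusted p = 0.255), and was called without WT caudal replicate 3 (-0.27, adjusted p = 0.0158).

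Fzd8 and Fzd9 fell. Fzd9, a receptor of the neural tube and of bone, averaged 1.57 ± 0.154 FPKM in Ednrb-/- trunk and 2.45 ± 0.433 FPKM in WT trunk (-0.50 ± 0.11, adjusted p = 0.00359). Caudally, Fzd9 averaged 1.42 ± 0.215 FPKM in Ednrb-/- and 1.90 ± 0.157 FPKM in WT (-0.32 ± 0.11, adjusted p = 0.0242). That caudal call for Fzd9 was lost without Ednrb-/- caudal replicate 1, 3 or 4 or WT caudal replicate 1 or 3 (adjusted p between 0.0519 and 0.0638), and without the 3 libraries with both Xist and Ddx3y (-0.33, adjusted p = 0.0618). Fzd8 averaged 5.55 ± 0.257 FPKM in Ednrb-/- trunk and 6.82 ± 0.637 FPKM in WT trunk (-0.27 ± 0.07, adjusted p = 0.0143), a call lost without WT trunk replicate 2 (adjusted p = 0.0515).

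Secreted antagonists moved in both directions. Caudally, 2 of 8 rose and 4 fell in Ednrb-/- embryos, and in the trunk 1 rose and 2 fell, with medians of -0.29 and 0.03. That is 75% caudally, beside 41.6% of all genes, and 37.5% in the trunk, beside 25.1%. Sfrp1 was the most abundant antagonist in every group, with 55.2% of their summed FPKM in Ednrb-/- trunk, 49.1% in WT trunk, 41.2% in Ednrb-/- caudal and 31.5% in WT caudal. The summed levels were 99.0 ± 2.10 FPKM in Ednrb-/- trunk and 96.9 ± 4.65 in WT trunk, and 101.8 ± 2.58 in Ednrb-/- caudal and 97.3 ± 5.69 in WT caudal (SD, n = 4 each).

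Dkk2, which binds Lrp6 and acts in eye, limb and skin development, had the largest fall of the 50 Wnt genes in both regions. Its FPKM were 4.87, 3.84, 4.52 and 3.64 in Ednrb-/- trunk, against 10.6, 12.0, 9.36 and 9.74 in WT trunk. They were 3.09, 1.76, 3.42 and 2.30 in Ednrb-/- caudal, against 6.80, 6.91, 4.35 and 7.35 in WT caudal. No mutant library reached a WT library of its region, and the changes were -1.21 ± 0.17 in the trunk (adjusted p = 0.000179) and -1.13 ± 0.17 in the caudal region (adjusted p = 0.000107). Dkk1, the head inducer and limb inhibitor, had 5.64, 5.82, 4.77 and 6.93 FPKM in Ednrb-/- caudal, against 4.18, 4.16, 3.47 and 2.64 FPKM in WT caudal. In the trunk Dkk1 had 0.840, 0.811, 1.496 and 1.14 FPKM in Ednrb-/- libraries, against 1.83, 0.986, 0.720 and 0.800 FPKM in WT libraries. Its caudal groups did not overlap and its trunk groups did. The caudal change was 0.62 ± 0.20 (adjusted p = 0.0193) and the trunk change 0.02 ± 0.20 (adjusted p = 0.962). The caudal call for Dkk1 was lost without Ednrb-/- caudal replicate 4 (0.54, adjusted p = 0.0622) or WT caudal replicate 4 (0.50, adjusted p = 0.0695).

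Dkk3, a divergent Dkk that is not a plain Wnt inhibitor, averaged 2.91 ± 0.397 FPKM in Ednrb-/- caudal and 4.09 ± 0.523 FPKM in WT caudal (-0.43 ± 0.09, adjusted p = 0.00192). In the trunk Dkk3 averaged 2.99 ± 0.319 FPKM in Ednrb-/- and 3.702 ± 0.139 FPKM in WT (-0.27 ± 0.09, adjusted p = 0.0453). That trunk call for Dkk3 was lost without Ednrb-/- trunk replicate 1, 2 or 4, any WT trunk replicate or WT caudal replicate 1 (adjusted p between 0.0526 and 0.135).

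Sfrp5 was low in WT trunk, where 1 library reached 0.5 FPKM. All 4 WT caudal libraries reached that level, so Sfrp5 did not need the mutant trunk to pass the filter on low values. It had 1.30, 1.31, 1.38 and 2.04 FPKM in Ednrb-/- trunk, against 0.315, 0.546, 0.474 and 0.439 FPKM in WT trunk. Caudally, Sfrp5 had 0.729, 0.372, 0.929 and 0.665 FPKM in Ednrb-/- libraries, against 0.771, 1.08, 1.42 and 0.772 FPKM in WT libraries. The trunk groups were well apart, and the caudal groups overlapped with the mutant mean lower. The change was 1.08 ± 0.17 in the trunk (adjusted p = 0.000403) and -0.37 ± 0.17 in the caudal region (adjusted p = 0.0982), and the difference -1.44 ± 0.24 was called (adjusted p = 0.00499). Without Ednrb-/- caudal replicate 3 the caudal change of Sfrp5 was called as well (-0.47, adjusted p = 0.0455).

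Sfrp1, a ligand-binding inhibitor, averaged 41.9 ± 1.20 FPKM in Ednrb-/- caudal and 30.7 ± 3.52 FPKM in WT caudal, with no overlap (0.45 ± 0.07, adjusted p = 0.000203). In the trunk Sfrp1 averaged 54.6 ± 2.22 FPKM in Ednrb-/- and 47.6 ± 4.31 FPKM in WT (0.20 ± 0.07, adjusted p = 0.0580), and was called without WT trunk replicate 1 (adjusted p = 0.0156) or WT caudal replicate 3 (adjusted p = 0.0150). Sfrp2, its relative in somites and neural tube, averaged 25.4 ± 2.07 FPKM in Ednrb-/- caudal and 29.4 ± 1.89 FPKM in WT caudal (-0.21 ± 0.07, adjusted p = 0.0310). That call for Sfrp2 was lost without Ednrb-/- caudal replicate 1 or 3 or WT caudal replicate 1 or 2 (adjusted p between 0.0572 and 0.0981), and without the 3 libraries with both Xist and Ddx3y (-0.17, adjusted p = 0.0962).

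Wif1, which traps ligands outside the cell, had 2.67, 2.31, 2.96 and 1.54 FPKM in Ednrb-/- caudal, against 4.46, 4.15, 3.22 and 4.92 FPKM in WT caudal. These groups did not overlap, and the change was -0.72 ± 0.16 (adjusted p = 0.00229). In the trunk Wif1 had 3.40, 3.39, 4.13 and 2.93 FPKM in Ednrb-/- libraries, against 4.77, 3.30, 3.69 and 3.15 FPKM in WT libraries, and was not called (-0.09 ± 0.16, adjusted p = 0.741). Frzb, a cartilage-associated inhibitor, was called in neither region, with 20.2 ± 1.40 FPKM in Ednrb-/- caudal and 17.9 ± 1.54 FPKM in WT caudal (0.17 ± 0.07, adjusted p = 0.0673). It was called in the caudal region without Ednrb-/- caudal replicate 3 (adjusted p = 0.0222) or WT caudal replicate 2 (adjusted p = 0.0194), which are among the 3 libraries with both Xist and Ddx3y, and without all 3 (0.27, adjusted p = 0.00730).

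Rspo3 and Lgr4 were the members of the R-spondin group whose genotype effect differed between the regions. In the trunk 1 of 5 rose and 3 fell in Ednrb-/- embryos, leaving out Rspo4 (80%, beside 25.1% of all genes), and in the caudal region 2 of 6 rose and 1 fell (50%, beside 41.6%), with medians of -0.30 and 0.22. Rspo3, which drives placental and vascular development and limb growth, had 3.77, 4.01, 4.27 and 3.59 FPKM in Ednrb-/- trunk, against 4.57, 5.21, 4.99 and 4.96 FPKM in WT trunk. It had 7.45, 8.22, 7.63 and 7.70 FPKM in Ednrb-/- caudal, against 6.92, 5.95, 5.23 and 6.33 FPKM in WT caudal. The groups did not overlap in either region, with the mutant lower in the trunk and higher in the caudal region. The change was -0.30 ± 0.07 in the trunk (adjusted p = 0.00648) and 0.33 ± 0.07 in the caudal region (adjusted p = 0.00193), and their difference was 0.63 ± 0.10 (adjusted p = 0.00430).

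Rspo4, needed for nails, was near the detection limit. It reached 0.5 FPKM in 4 Ednrb-/- trunk, 1 WT trunk, 2 Ednrb-/- caudal and 0 WT caudal libraries, so it passed the filter only through Ednrb-/- trunk. It averaged 0.808 ± 0.222 FPKM in Ednrb-/- trunk and 0.235 ± 0.198 FPKM in WT trunk, a difference given with no test, since a gene that passes in this way had to be high there. It averaged 0.492 ± 0.149 FPKM in Ednrb-/- caudal and 0.147 ± 0.0649 FPKM in WT caudal (0.61 ± 0.18, adjusted p = 0.0120). Rspo2, needed for limb and lung, averaged 0.958 ± 0.274 FPKM in Ednrb-/- trunk and 1.54 ± 0.145 FPKM in WT trunk (-0.50 ± 0.16, adjusted p = 0.0326). That trunk call for Rspo2 was lost without Ednrb-/- trunk replicate 1, 2 or 4 or WT trunk replicate 1, 3 or 4 (adjusted p between 0.0573 and 0.0957). Rspo1, a factor in ovary differentiation, was called in neither region (-0.01 in the trunk and 0.43 in the caudal region, adjusted p = 0.974 and 0.0749). Caudally, Rspo1 was called without Ednrb-/- caudal replicate 2 (adjusted p = 0.0338) or WT caudal replicate 1 (adjusted p = 0.0359).

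Lgr5, an R-spondin receptor known as a stem cell marker, averaged 1.36 ± 0.107 FPKM in Ednrb-/- trunk and 2.05 ± 0.263 FPKM in WT trunk, and 0.635 ± 0.0634 in Ednrb-/- caudal and 0.970 ± 0.0714 in WT caudal. The genotypes did not overlap in either region, with changes of -0.45 ± 0.08 in the trunk (adjusted p = 0.00137) and -0.37 ± 0.08 in the caudal region (adjusted p = 0.00231). Lgr4, the more abundant receptor, had 19.3 to 20.7 FPKM in Ednrb-/- trunk, against 16.6 to 17.5 FPKM in WT trunk, and 17.9 to 19.1 FPKM in Ednrb-/- caudal, against 18.1 to 19.6 FPKM in WT caudal. It rose in the trunk by 0.21 ± 0.04 (adjusted p = 0.000706). Caudally, the change was -0.04 ± 0.04 (adjusted p = 0.417), and the difference between the regions, -0.25 ± 0.05, was called (adjusted p = 0.0114). Rescaled to TPM, Lgr4 was called as lower in the caudal region (-0.14, adjusted p = 0.00515).

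**Figure D3:**
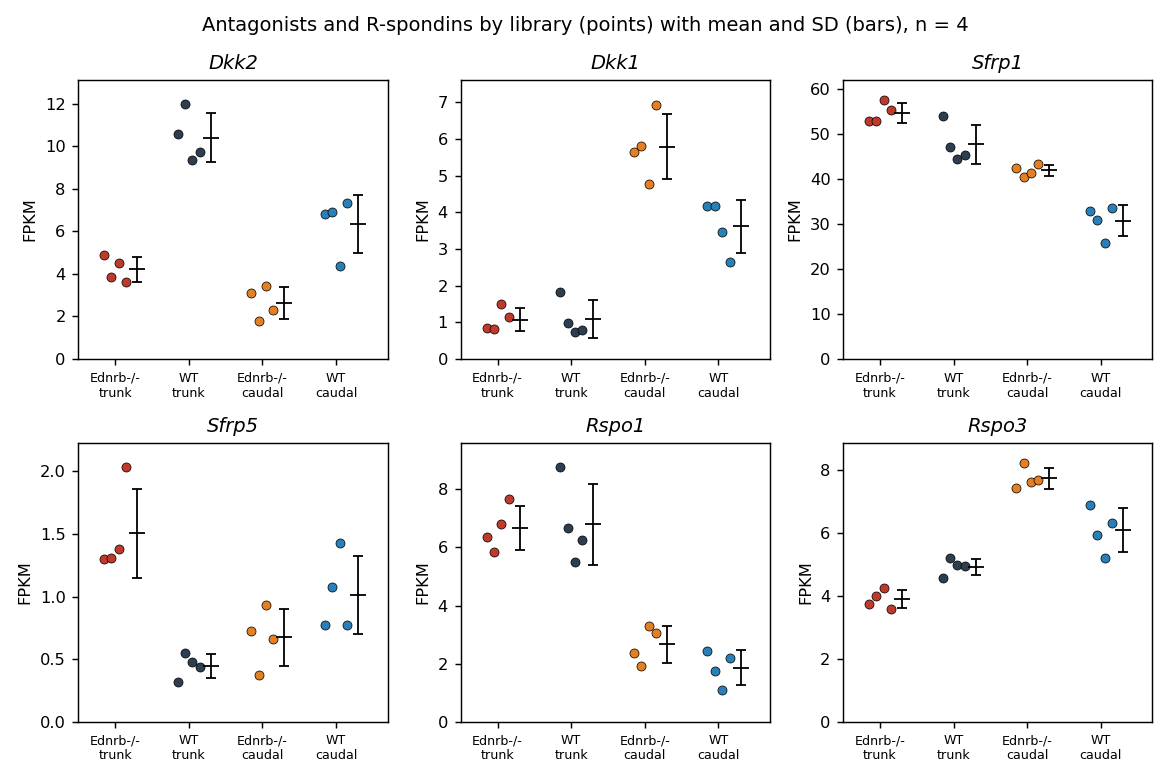
FPKM of 4 secreted antagonists and 2 R-spondins in each of the 16 libraries (points), by group, with the mean and SD of 4 libraries (bars). Dkk2 is lower in Ednrb-/- than in WT libraries in both regions, Dkk1 separates the caudal from the trunk libraries, and Rspo3 is lower in the mutant trunk and higher in the mutant caudal region.

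All target genes called in FPKM rose; on the TPM scale 1 fell. In the trunk 5 of 7 rose in Ednrb-/- embryos (Axin2, Lef1, Tcf7, Notum and Znrf3) and 0 fell, and in the caudal region 3 rose (Axin2, Tcf7 and Znrf3) and 0 fell. The called share was 71.4% in the trunk, beside 25.1% of all genes, and 42.9% in the caudal region, near the 41.6% of all genes. The median change was 0.33 for the 7 targets in the trunk and 0.19 for 6 in the caudal region, leaving out Rnf43, which passed the filter only through Ednrb-/- caudal, beside 0.00 and 0.01 for all genes tested. On the TPM scale 4 rose and 0 fell in the trunk, but in the caudal region 1 rose (Tcf7) and 1 fell (Nkd1, -0.17, adjusted p = 0.0195). Summed over the 7 genes, FPKM were 41.9 ± 2.91 in Ednrb-/- trunk and 33.8 ± 1.32 in WT trunk, and 49.0 ± 2.18 in Ednrb-/- caudal and 43.2 ± 3.06 in WT caudal (SD, n = 4 each). In limma 0 of the 7 had a called interaction, and 2 (Lef1 and Notum) had an unadjusted p under 0.05. With voom on the whole reads Lef1 was called (-0.52, adjusted p = 0.0439).

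Axin2, a scaffold of the complex that destroys beta-catenin, had 15.2, 15.1, 14.4 and 17.5 FPKM in Ednrb-/- trunk, against 11.1, 12.6, 12.5 and 12.8 FPKM in WT trunk. It had 15.4, 16.9, 16.5 and 16.3 FPKM in Ednrb-/- caudal, against 12.8, 14.7, 14.8 and 13.8 FPKM in WT caudal. The genotypes did not overlap in either region. The change was 0.33 ± 0.06 in the trunk (adjusted p = 0.00130) and 0.21 ± 0.06 in the caudal region (adjusted p = 0.0123), the second of which was lost on the TPM scale (0.11, adjusted p = 0.139). Znrf3, a ubiquitin ligase that removes Frizzled receptors, had 3.76, 3.85, 3.93 and 4.00 FPKM in Ednrb-/- trunk, against 2.73, 3.36, 2.86 and 3.19 FPKM in WT trunk. It had 4.03, 4.43, 3.74 and 4.09 FPKM in Ednrb-/- caudal, against 3.42, 3.65, 3.26 and 3.42 FPKM in WT caudal. Every mutant library again lay above every WT library of its region. Its changes were 0.31 ± 0.06 in the trunk (adjusted p = 0.00215) and 0.21 ± 0.06 in the caudal region (adjusted p = 0.0119), and the caudal call was lost on the TPM scale (0.12, adjusted p = 0.126).

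Tcf7 and Lef1 encode the nuclear partners of beta-catenin and are themselves targets. Tcf7 had 6.48, 5.82, 5.91 and 5.88 FPKM in Ednrb-/- trunk, against 3.41, 4.14, 3.93 and 3.498 FPKM in WT trunk. It had 8.54, 12.6, 8.75 and 9.61 FPKM in Ednrb-/- caudal, against 6.62, 8.09, 7.51 and 5.60 FPKM in WT caudal. The genotypes of Tcf7 did not overlap in either region, and the changes were 0.62 ± 0.11 in the trunk (adjusted p = 0.00126) and 0.47 ± 0.11 in the caudal region (adjusted p = 0.00388). Lef1 had 2.49, 2.44, 2.48 and 3.11 FPKM in Ednrb-/- trunk, against 1.91, 1.56, 1.52 and 1.58 FPKM in WT trunk. Caudally, Lef1 had 4.49, 4.57, 4.62 and 4.61 FPKM in Ednrb-/- libraries, against 4.41, 4.56, 4.27 and 3.07 FPKM in WT libraries. Its trunk groups did not overlap, and its caudal groups did, with WT replicate 4 well below the rest. The Lef1 change was 0.54 ± 0.10 in the trunk (adjusted p = 0.00130) and 0.16 ± 0.10 in the caudal region (adjusted p = 0.222). The difference between these effects was -0.38 ± 0.14 (adjusted p = 0.117), and it was called without WT caudal replicate 4 (-0.50, adjusted p = 0.0203).

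WT caudal replicate 4 was the lowest of its group for Wnt16, Dkk1, Lef1 and Tcf7, and also for markers of the tailbud. The 8 tailbud markers summed to 32.1, 19.4, 30.9 and 44.0 FPKM in Ednrb-/- caudal, against 14.9, 19.6, 24.9 and 4.22 FPKM in WT caudal. Of the 8, 6 passed the filter only through Ednrb-/- caudal, so their calls in that group are not counted. Of the other 2, T rose in the caudal region and Tbx6 was not called (adjusted p = 0.0580). In the trunk 0 of the 8 were called, the sums were 2.44 to 3.00 FPKM in Ednrb-/- and 2.02 to 2.52 FPKM in WT, and Cdx2 and Cdx4 were below 0.1 FPKM in every library of either genotype. The part of the tailbud share in the caudal results was not tested.

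Notum, a secreted enzyme that strips the lipid from Wnt ligands, had 2.03, 2.03, 1.78 and 2.55 FPKM in Ednrb-/- trunk, against 1.80, 1.502, 1.35 and 1.38 FPKM in WT trunk. It had 2.10, 1.26, 1.82 and 2.04 FPKM in Ednrb-/- caudal, against 1.69, 1.68, 1.86 and 2.18 FPKM in WT caudal. The groups overlapped in both regions, and the changes were 0.37 ± 0.13 in the trunk (adjusted p = 0.0432) and -0.04 ± 0.13 in the caudal region (adjusted p = 0.815). The trunk call for Notum was lost without Ednrb-/- trunk replicate 1, 2 or 4, WT trunk replicate 2, 3 or 4, Ednrb-/- caudal replicate 3 or WT caudal replicate 3 (adjusted p between 0.0512 and 0.133), and without the 3 libraries with both Xist and Ddx3y (0.43, adjusted p = 0.0505). Nkd1, which binds Dishevelled and dampens the signal, averaged 11.4 ± 0.900 FPKM in Ednrb-/- trunk and 11.2 ± 0.480 FPKM in WT trunk, and 11.7 ± 0.224 FPKM in Ednrb-/- caudal and 12.3 ± 0.962 FPKM in WT caudal. The genotypes overlapped in both regions, with changes of 0.02 ± 0.06 in the trunk (adjusted p = 0.831) and -0.07 ± 0.06 in the caudal region (adjusted p = 0.339). Rnf43, the partner of Znrf3, reached 0.5 FPKM in 0 Ednrb-/- trunk, 1 WT trunk, 4 Ednrb-/- caudal and 2 WT caudal libraries, so it passed the filter only through Ednrb-/- caudal. It stayed below 1 FPKM in all libraries, at 0.317 ± 0.0703 in Ednrb-/- trunk, 0.387 ± 0.147 in WT trunk, 0.739 ± 0.0469 in Ednrb-/- caudal and 0.543 ± 0.132 in WT caudal, and was called in neither region (-0.11 and 0.26, adjusted p = 0.595 and 0.131).

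**Figure D4:**
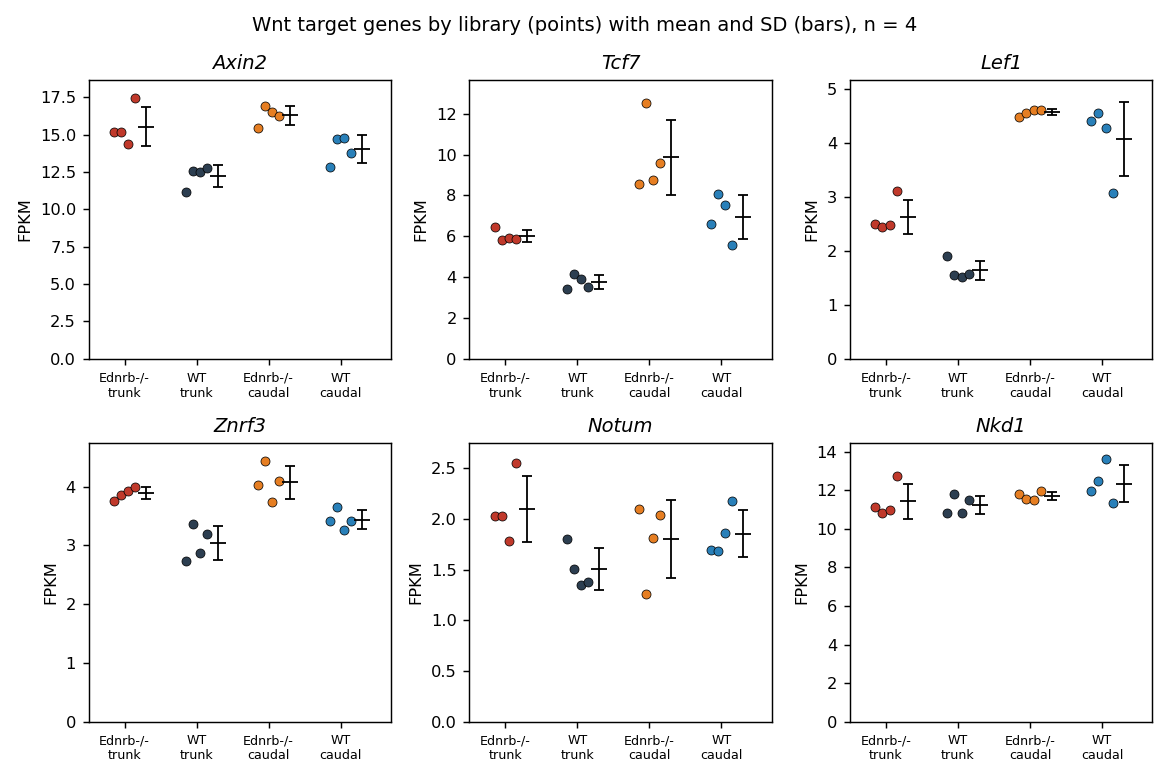
FPKM of 6 feedback targets of the pathway in each of the 16 libraries (points), by group, with the mean and SD of 4 libraries (bars). Axin2, Tcf7 and Znrf3 are higher in Ednrb-/- than in WT libraries in both regions, Lef1 in the trunk, and Nkd1 lies between 10.8 and 13.6 FPKM in all 16 libraries.

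Dkk1, Wnt16, Lef1 and Rspo3 were lower, and Rspo1, Wnt2b and Lgr5 higher, in trunk than in the caudal region of both genotypes. In Ednrb-/- embryos 27 of 50 genes were called, 12 higher and 15 lower in trunk than in caudal libraries, beside 36.2% of all genes tested (17.3% higher and 18.9% lower). Without Rspo4 and Rnf43, each of which passed the filter only through 1 of these groups, 12 of 48 were higher and 14 lower. In WT embryos 23 of 50 were called, 7 higher and 16 lower in trunk, beside 18.0% of all genes (9.69% higher and 8.35% lower). On the TPM scale the Ednrb-/- calls of Wnt genes were again 12 higher and 15 lower, while the share of higher calls over all genes was 66.9%, beside 47.8% in FPKM. The median trunk minus caudal change of the 50 genes was 0.00 in Ednrb-/- and -0.13 in WT, beside -0.01 and 0.00 for all genes. The libraries of the regions did not overlap for 26 genes in Ednrb-/- embryos (33.8% of all genes tested) and for 20 in WT embryos (21.3%). The 26 include Rnf43, for which a higher level in Ednrb-/- caudal was largely set by the filter. Higher in trunk in both genotypes were Wnt2b, Fzd8, Dkk2, Sfrp1, Rspo1 and Lgr5. Lower in trunk in both were Wnt16, Fzd7, Fzd10, Ror2, Dkk1, Sfrp2, Frzb, Rspo3, Lef1 and Tcf7. Sfrp5 and Lgr4 were called in both genotypes with opposite signs.

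Rspo1 marked the trunk and Dkk1 the caudal region. Rspo1 had 6.37, 5.85, 6.80 and 7.66 FPKM in Ednrb-/- trunk, against 2.38, 1.91, 3.28 and 3.07 FPKM in Ednrb-/- caudal. It had 8.75, 6.66, 5.48 and 6.26 FPKM in WT trunk, against 2.44, 1.76, 1.09 and 2.19 FPKM in WT caudal. Every trunk library exceeded every caudal library, with trunk minus caudal changes of 1.20 ± 0.19 in Ednrb-/- (adjusted p = 0.000177) and 1.64 ± 0.19 in WT (adjusted p = 2.65e-05). The Dkk1 values given above lay between 0.720 and 1.83 FPKM in the trunk libraries and between 2.64 and 6.93 FPKM in the caudal libraries. Its changes were -2.01 ± 0.20 in Ednrb-/- (adjusted p = 3.92e-06) and -1.41 ± 0.20 in WT (adjusted p = 0.000179), the largest falls of any Wnt gene in both genotypes.

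Among the ligands, Wnt16 was lower in trunk, with trunk minus caudal changes of -0.87 ± 0.16 in Ednrb-/- (adjusted p = 0.000709) and -1.35 ± 0.16 in WT (adjusted p = 4.33e-05). Wnt2b was higher in trunk by 0.90 in Ednrb-/- (adjusted p = 0.000676) and 0.86 in WT (adjusted p = 0.00224). Wnt4 and Wnt7b were higher in trunk in Ednrb-/- embryos (0.67 ± 0.05 and 0.53 ± 0.13, adjusted p = 4.80e-07 and 0.00502). In WT embryos neither was called (-0.01 ± 0.05 and -0.07 ± 0.13, adjusted p = 0.889 and 0.756). Wnt5a was lower in trunk in Ednrb-/- embryos (-0.62 ± 0.09, adjusted p = 9.57e-05) and had 0.18 ± 0.09 in WT (adjusted p = 0.188), which was called as higher without WT caudal replicate 2 (0.27, adjusted p = 0.0307) or all 3 libraries with both Xist and Ddx3y (0.27, adjusted p = 0.0450). The interaction values given above are the tests of these differences between genotypes, and they were called for Wnt4 and Wnt5a. Wnt2 was lower in trunk in Ednrb-/- embryos (-0.80 ± 0.20, adjusted p = 0.00644), a call lost without the 3 libraries with both Xist and Ddx3y (-0.63, adjusted p = 0.0680). Wnt5b was lower in trunk in Ednrb-/- embryos (-0.33 ± 0.07, adjusted p = 0.00223), and Wnt1 in WT embryos (-0.63 ± 0.14, adjusted p = 0.00648).

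Fzd8 was higher in trunk (0.60 ± 0.07 in Ednrb-/- and 0.76 ± 0.07 in WT, adjusted p = 2.83e-05 and 7.09e-06). Fzd7 and Ror2 were lower in trunk, with changes of -0.48 and -0.48 in Ednrb-/- and -0.61 and -0.63 in WT (adjusted p = 5.80e-05, 7.99e-05, 1.82e-05 and 1.62e-05). Lgr5 was higher in trunk (0.71 ± 0.08 in Ednrb-/- and 0.79 ± 0.08 in WT, adjusted p = 1.99e-05 and 1.62e-05). Rspo3 was lower in trunk, and the fall of -0.91 ± 0.07 in Ednrb-/- (adjusted p = 4.80e-07) exceeded that of -0.28 ± 0.07 in WT (adjusted p = 0.0142), a difference tested by its interaction. Sfrp5 was higher in trunk in Ednrb-/- (0.78 ± 0.17, adjusted p = 0.00235) and lower in WT (-0.66 ± 0.17, adjusted p = 0.0134). Lgr4 was higher in trunk in Ednrb-/- (0.10 ± 0.04, adjusted p = 0.0367) and lower in WT (-0.15 ± 0.04, adjusted p = 0.00978). The Ednrb-/- call of Lgr4 was lost without Ednrb-/- trunk replicate 1, 2 or 4 or Ednrb-/- caudal replicate 1 or 4 (adjusted p between 0.0517 and 0.115).

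The targets Lef1 and Tcf7 were lower in trunk in both genotypes. Lef1 differed by -0.70 ± 0.10 in Ednrb-/- (adjusted p = 9.56e-05) and -1.09 ± 0.10 in WT (adjusted p = 4.16e-06). Tcf7 differed by -0.65 ± 0.11 in Ednrb-/- (adjusted p = 0.000489) and -0.80 ± 0.11 in WT (adjusted p = 0.000215). Axin2 differed by -0.07 ± 0.06 in Ednrb-/- (adjusted p = 0.412) and -0.19 ± 0.06 in WT (adjusted p = 0.0423). The WT call of Axin2 was lost without any 1 of 10 libraries (Ednrb-/- trunk replicates 1 and 2, WT trunk replicates 1, 2 and 3, Ednrb-/- caudal replicates 3 and 4, and WT caudal replicates 2, 3 and 4), with adjusted p between 0.0505 and 0.121. Tailbud markers differed in the same direction, with 7 of 8 lower in trunk in WT and, in Ednrb-/-, both T and Tbx6. The other 6 reached 0.5 FPKM in 0 trunk libraries and were tested only because of caudal libraries. A fall in trunk was thus largely set by the filter for them, and the WT count is not read against all genes. The part of tailbud markers in the Lef1 and Tcf7 differences was not tested. Fzd1, Fzd2 and Wnt10b were called in WT (adjusted p = 0.0436, 0.0377 and 0.0429), and all 3 calls were lost in the fit of the WT groups alone and with no filter. The Fzd2 call was lost without WT trunk replicate 1, 2 or 3 or WT caudal replicate 2 or 4 (adjusted p between 0.0794 and 0.116). The Fzd1 call was lost without any Ednrb-/- trunk or WT trunk replicate, Ednrb-/- caudal replicate 4, or WT caudal replicate 1, 2 or 4 (adjusted p between 0.0508 and 0.138). The Wnt10b call was lost without any Ednrb-/- trunk replicate, WT trunk replicate 1, 2 or 4, Ednrb-/- caudal replicate 1 or 3, or WT caudal replicate 1, 2 or 3 (adjusted p between 0.0508 and 0.132). Wif1 was higher in trunk in Ednrb-/- (0.49 ± 0.16, adjusted p = 0.0293), a call lost without Ednrb-/- trunk replicate 1, 2 or 3 or Ednrb-/- caudal replicate 2 or 4 (adjusted p between 0.0518 and 0.103). Leaving out 1 library added calls in WT for Wnt3 (without replicate 1 of either caudal group, adjusted p = 0.0486 for Ednrb-/- and 0.0435 for WT), Fzd9 (without WT trunk replicate 1, 0.0124) and Znrf3 (without WT trunk replicate 2, 0.0460). In Ednrb-/- it added Wnt6 (without Ednrb-/- caudal replicate 3, adjusted p = 0.0471), Wnt11 (without Ednrb-/- caudal replicate 1, 0.0499) and Fzd2 (without WT caudal replicate 3 or 4, 0.0445 and 0.0386).

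**Figure D5:**
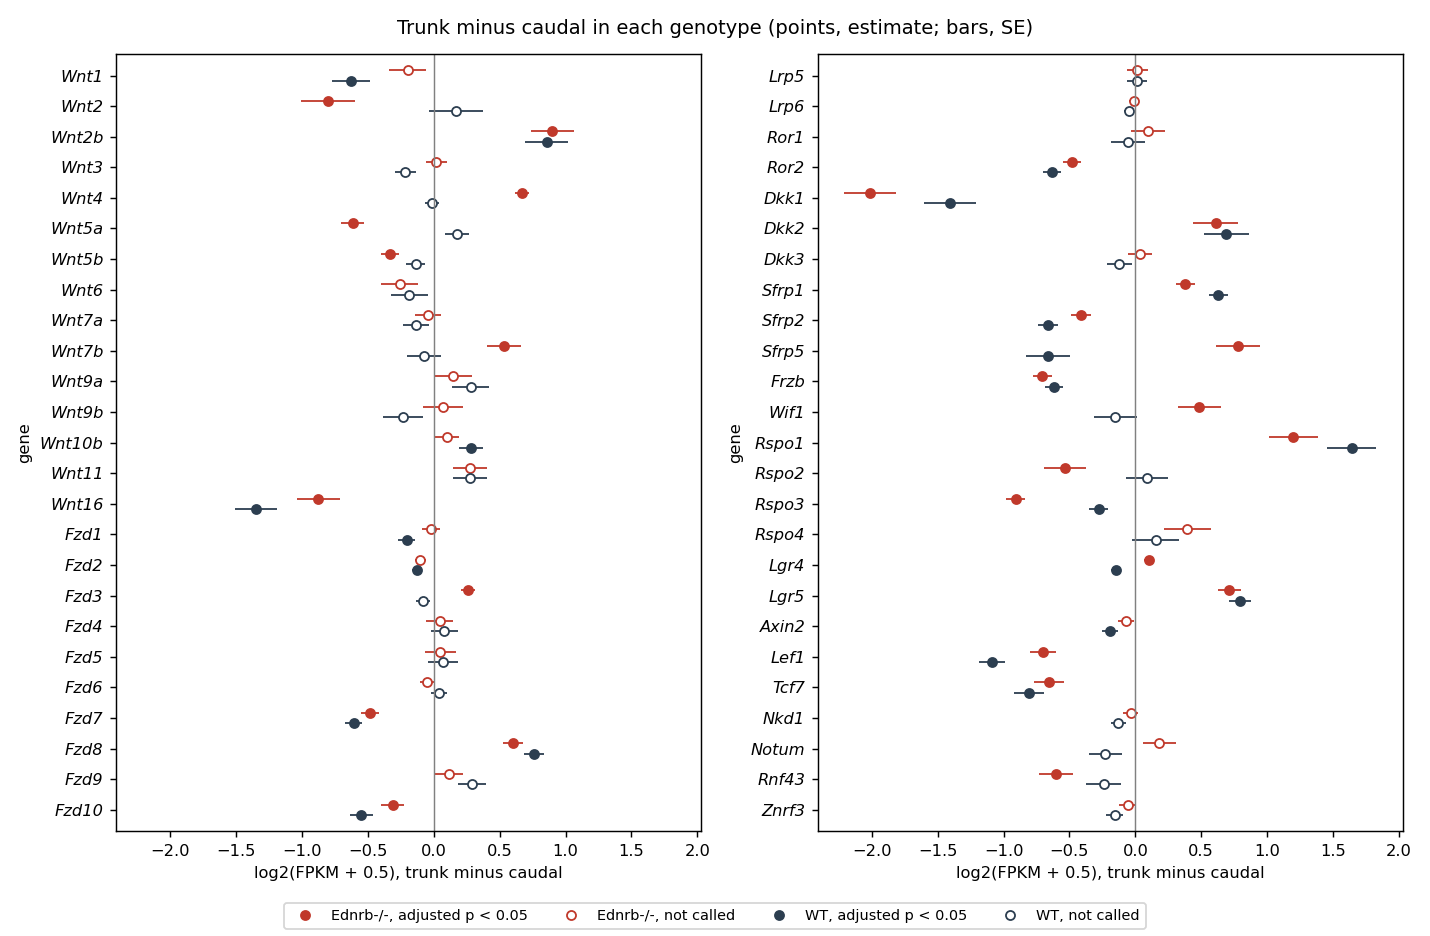
Difference in log2(FPKM + 0.5) between trunk and caudal libraries for the 50 Wnt genes tested, with Ednrb-/- above WT for each gene; points are limma estimates, bars are standard errors and filled points were called at an adjusted p under 0.05. Dkk1 lies farthest to the left and Rspo1 farthest to the right in both genotypes, while Sfrp5 lies on opposite sides. In Ednrb-/- embryos Rnf43 and Rspo4 passed the filter only through 1 of the groups compared.

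Other genes of the pathway were taken from lists by role. Of 13 genes of the chain that carries the signal inside the cell, 1 rose and 0 fell in the trunk (Axin1, 0.16 ± 0.05, adjusted p = 0.0341), and 2 rose and 3 fell in the caudal region. That is 7.69% in the trunk, below the 25.1% of all genes, and 38.5% in the caudal region, near the 41.6% of all genes. Their median change was 0.06 in the trunk and -0.01 in the caudal region. Ctnnb1, which encodes beta-catenin, was called in neither, with means of 199 FPKM in Ednrb-/- trunk and 206 FPKM in WT trunk, and 194 in Ednrb-/- caudal and 194 in WT caudal. Caudally, Dvl3, a Dishevelled relay protein, fell (-0.25 ± 0.06, adjusted p = 0.00267), as did the kinase gene Gsk3b (-0.20 ± 0.05, adjusted p = 0.00461). Amer1, a membrane scaffold, rose there (0.15 ± 0.03, adjusted p = 0.00307).

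Of 10 nuclear factors, 0 rose and 4 fell in the caudal region, and 1 rose and 1 fell in the trunk, with medians of -0.08 and -0.03. That is 40% caudally, near the 41.6% of all genes, and 20% in the trunk, beside 25.1% of all genes. Tle2, a Groucho co-repressor, averaged 2.46 FPKM in Ednrb-/- trunk and 4.11 FPKM in WT trunk (-0.63 ± 0.14, adjusted p = 0.00381), and 1.58 in Ednrb-/- caudal and 3.51 in WT caudal (-0.94 ± 0.14, adjusted p = 8.96e-05). Tle1, its relative, fell in the caudal region (-0.38 ± 0.05, adjusted p = 3.42e-05). Tcf7l1, a mostly repressive Tcf factor, rose in the trunk (0.23 ± 0.07, adjusted p = 0.0311).

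Of 9 further targets 8 were tested, and 3 rose and 0 fell in each region. That is 37.5% in the trunk, beside 25.1% of all genes. In the caudal region Msgn1 passed the filter only through Ednrb-/- caudal, and without it the share was 42.9%, near the 41.6% of all genes. Their median change was 0.27 in the trunk and, without Msgn1, 0.78 in the caudal region, beside 0.00 and 0.01 for all genes. The list shares T and Tbx6 with the tailbud markers, whose mean sum was 31.6 FPKM in Ednrb-/- caudal and 15.9 FPKM in WT caudal. The part of tailbud tissue in this median was not tested. Myc, a growth regulator, averaged 10.3 FPKM in Ednrb-/- trunk and 7.10 FPKM in WT trunk (0.50 ± 0.13, adjusted p = 0.0127), and 16.1 in Ednrb-/- caudal and 8.60 in WT caudal (0.86 ± 0.13, adjusted p = 0.000135). Nkd2 and Sp8 rose in the trunk (0.42 ± 0.07 and 0.73 ± 0.14, adjusted p = 0.000532 and 0.00158). Sp5 and T, a tailbud marker as well, rose in the caudal region (0.78 ± 0.20 and 0.93 ± 0.31, adjusted p = 0.00628 and 0.0273).

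Of 9 further antagonists and modulators 6 were tested. Caudally, 1 of 5 rose and 3 fell, leaving out Cer1, and in the trunk 1 of 6 rose and 2 fell, with medians of -0.20 and -0.18. That is 80% caudally, beside 41.6% of all genes, and 50% in the trunk, beside 25.1%. Sost, an inhibitor of Lrp5 and Lrp6, rose in both, by 1.08 in the trunk (adjusted p = 0.000318) and 0.80 in the caudal region (adjusted p = 0.00120). Kremen2, a receptor for Dkk proteins, and Apcdd1, a membrane inhibitor, fell in both. Kremen2 changed by -0.84 in the trunk (adjusted p = 0.000874) and -0.42 in the caudal region (adjusted p = 0.0322). Apcdd1 changed by -0.81 in the trunk (adjusted p = 5.97e-05) and -0.35 in the caudal region (adjusted p = 0.00964). Cer1, a secreted antagonist of the early embryo, passed the filter only through Ednrb-/- caudal and averaged 4.05 FPKM in Ednrb-/- caudal and 1.71 FPKM in WT caudal, with no test.

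Of 11 planar polarity genes, 1 rose and 5 fell in the caudal region, and 1 rose and 1 fell in the trunk, with medians of 0.00 and -0.01. That is 54.5% caudally, beside 41.6% of all genes, and 18.2% in the trunk, beside 25.1%. Celsr1, an adhesion receptor of epithelia, rose in both, by 0.53 in the trunk (adjusted p = 0.00180) and 0.35 in the caudal region (adjusted p = 0.0126). Its neuronal relative Celsr3 averaged 1.87 FPKM in Ednrb-/- caudal and 4.00 FPKM in WT caudal, and fell (-0.94 ± 0.14, adjusted p = 0.000124). Prickle1 fell in the trunk (-0.40 ± 0.07, adjusted p = 0.00116), and Prickle2 in the caudal region (-0.31 ± 0.07, adjusted p = 0.00219). Of 5 further ligand and secretion genes 4 were tested. Leaving out Wnt8a, which did not reach the filter without the Ednrb-/- libraries of the region compared, 0 of 3 were called in the trunk and 1 in the caudal region (33.3%, beside 41.6% of all genes), with medians of -0.04 and 0.00. Porcn, which adds the lipid to Wnt ligands, fell in the caudal region (-0.36 ± 0.11, adjusted p = 0.0120), while Wls, which carries them to the cell surface, was called in neither region. Wnt3a, the ligand that maintains the tailbud, averaged 2.02 FPKM in Ednrb-/- caudal and 1.44 FPKM in WT caudal and was not called (0.39 ± 0.21, adjusted p = 0.154).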

How the data were processed

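Per the labels' protocols, total RNA was taken with TRIzol and Illumina libraries were made. The build was mm39, and the tools named are fastp, featureCounts 1.5.0-p3 and HISAT2 2.0.5, per the submitters' processing notes. Strand setting, annotation release and handling of multi-mapping reads were not given in the sources used here. The authors deposited FPKM in 1 table with 1 column per library. FPKM times gene length gave whole reads within 0.01 for 100% of values, and those reads gave the depths. At this depth the spread between libraries, rather than counting error, limits all but the lowest genes.

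FPKM were analysed with limma 3.58.1 in R 4.3.3 on log2(FPKM + 0.5), with 4 group means over all 16 libraries, a prior variance that follows the mean level, and Benjamini-Hochberg adjustment over 17205 genes with at least 0.5 FPKM in 4 or more libraries. This scale understates changes of low genes. The procedure was tested on simulated data. Libraries are labelled as biological replicates; their embryos are not named, so regions were treated as separate samples, and p-values measure the spread between these libraries. Same-numbered libraries of compared groups did not deviate together (correlations from -0.0836 to 0.109), so the numbers were not used as pairs. All pairs of libraries within a group differed beyond counting error, so none was counted as a repeat.

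The 51 members and all lists were chosen with earlier results of these data known. Values in every library are given for genes called in a genotype comparison or the interaction with a change of at least 1.5-fold and a group mean of at least 1 FPKM, and for the feedback targets that reach 1 FPKM, except Nkd1, which is given by group means. From each list of other pathway genes, examples come from the 4 with the lowest adjusted p in a genotype comparison; Ctnnb1, Wls and Wnt3a were chosen after their values were seen. The lists were: other ligands and secretion, other antagonists, cytoplasmic chain, nuclear factors, other targets and planar polarity, and markers of 8 tissues. Of the 51 genes 21 overlap another annotated gene, and for 5 (Wnt5b, Axin2, Fzd3, Wnt6 and Wnt5a) that gene averaged 0.5 FPKM or more. Alternatives were other pseudocounts (0.1 and 1), a filter at 1 FPKM or none, scaling to TPM, by median of ratios or by quantiles, only the groups compared, the replicate block, voom on the whole reads, Xist as a covariate, the 3 libraries with Xist and Ddx3y left out, and each of 16 libraries left out. Promoters came from a RefSeq table of GRCm38.p6, searched in Python 3.11.15, and figures were drawn with matplotlib 3.10.9.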

Additional observations from a re-analysis of the deposited data

Results flagged for a closer look

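In 12 of 204 sets of 4 libraries (51 genes in 4 groups), 1 library stood far from the other 3. Chance alone gives about 1 such set in 20. In Ednrb-/- trunk, replicate 1 was apart for Wnt10b (1.36 FPKM, the others 1.47 to 1.49) and Tcf7 (6.48, the others 5.82 to 5.91), and replicate 2 for Frzb (13.5, the others 11.7 to 11.8). Ednrb-/- trunk replicate 3 was apart for Wnt4 (8.28, the others 7.91 to 7.97) and Wnt11 (2.43, the others 1.75 to 1.84). Ednrb-/- trunk replicate 4 was apart for Sfrp5 (2.04, the others 1.30 to 1.38), Lef1 (3.11, the others 2.44 to 2.49) and Nkd1 (12.8, the others 10.8 to 11.2). In WT trunk, replicate 1 was apart for Lef1 (1.91, the others 1.52 to 1.58). In Ednrb-/- caudal, replicate 2 was apart for Fzd9 (1.74, the others 1.28 to 1.33). In WT caudal, replicate 2 was apart for Wnt5a (11.47, the others 8.49 to 8.97) and replicate 4 for Wnt9a (1.04, the others 1.24 to 1.28).

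The genotype effect differed between the regions, by the limma interaction on log2(FPKM + 0.5), for 6 genes. Given as the caudal effect minus the trunk effect, it was -0.68 for Wnt4 (adjusted p = 0.000419), 0.79 for Wnt5a (adjusted p = 0.00372), -0.34 for Fzd3 (adjusted p = 0.0158), -1.44 for Sfrp5 (adjusted p = 0.00499), 0.63 for Rspo3 (adjusted p = 0.00430) and -0.25 for Lgr4 (adjusted p = 0.0114).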

How the results depend on the processing

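No called gene changed direction in the alternatives run, and no count of called Wnt genes moved by more than 1.5 times. These counts include Rspo4 in the trunk and Rnf43 between regions in Ednrb-/-, which passed the filter only through a group compared. With each library left out in turn, the count ranged from 22 to 26 in the caudal genotype comparison and 21 to 27 in the trunk. It ranged from 6 to 8 for the interaction, 25 to 28 between regions in Ednrb-/- and 20 to 23 in WT. The called share of all genes moved too, from 34.9% to 41.95% caudally and from 19.5% to 26.2% in the trunk. For the interaction that share was 3.4% to 8.65%, and between regions 28.3% to 36.8% in Ednrb-/- and 12.5% to 18.8% in WT. All 6 interaction calls were made in every alternative run. In the caudal genotype comparison 17 of 25 calls were made in every alternative, in the trunk 20 of 25, between regions 23 of 27 in Ednrb-/- and 19 of 23 in WT. The replicate block, with numbers that the data did not pair, gave 25 caudal, 24 trunk and 6 interaction calls, beside 41.5%, 25.3% and 6.56% of all genes. Between regions the block gave 28 calls in Ednrb-/- and 22 in WT, beside 36.3% and 18.2% of all genes. With the replicate block Dkk3 in the trunk (adjusted p = 0.0578) and Fzd1 between regions in WT (adjusted p = 0.0507) were no longer called. Fzd2 between regions in Ednrb-/- was called (adjusted p = 0.0389). On the TPM scale the caudal genotype calls split into 10 higher and 15 lower, beside 14 and 11 in FPKM, and the median over all genes shifted to -0.08. With voom on the whole reads 30 Wnt genes were called in the trunk and 26 in the caudal region, among 4777 and 7094 genes in all; over all genes it called 1593 interactions, and 6307 genes between regions in Ednrb-/- and 3524 in WT. The fit of only the groups compared could not be made for the interaction, which uses all 4. Fzd10 and Wif1 between regions in Ednrb-/- were lost without the 3 libraries with Xist and Ddx3y (adjusted p = 0.0761 and 0.0546). Counting error weighs most on genes with few reads. Reads per library ran from 8 to 51 for Wnt10a and from 7 to 102 for Rspo4. They ran from 46 to 190 for Rnf43 and from 97 to 199 for Fzd5. Sfrp5 and Wnt9b also had libraries below 0.5 FPKM, and their reads were not examined.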
